A study of Danio rerio with 30 samples.

Results

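The genes described here are 9 targets and effectors of the p53 pathway, *mdm2*, *cdkn1a*, *ccng1*, *gadd45aa*, *bbc3*, *baxa*, *casp8*, *phlda3* and *sesn3*, followed through zebrafish embryos injected with morpholinos against the Tbx5 paralogues. They were chosen by name, as genes commonly induced when a morpholino has effects beyond its target, with earlier results of these data known. They were 9 of the 31841 gene names with values in the series. Whole-embryo RNA was sequenced from oligo dT cDNA at 18 and 21 hpf, in 30 libraries of 10 pooled embryos each. The triplicate experiment had 24 libraries in 8 groups, and the eyes of its embryos had been removed. The preliminary experiment had 6 libraries of whole embryos with eyes, 1 per group, and no double-deficient embryos. Each gene had 1 FPKM value per group, fragments scaled to transcript length and library size, with the authors' lower and upper bounds, which are given in parentheses below.

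All embryos were of the *AB strain. At each stage the triplicate groups were wildtype embryos, embryos injected with a *tbx5a* morpholino (Tbx5a-deficient), embryos injected with a *tbx5b* morpholino (Tbx5b-deficient) and embryos injected with both (double-deficient). The preliminary groups were the first 3 of these at each stage. Morpholinos, antisense oligonucleotides that block the splicing or translation of a chosen transcript, were given at the single-cell stage, so that all cells of the embryo descend from the injected cell. The methods name no control injection for wildtype embryos. An effect of injection and an effect of losing a Tbx5 protein therefore cannot be told apart in any comparison of injected with wildtype embryos.

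The p53 pathway is kept low in undisturbed cells by Mdm2, a ubiquitin ligase that is itself encoded by a target gene of the pathway. When DNA is damaged or cells are otherwise stressed, the pathway raises genes that halt the cell cycle, repair DNA or lead to apoptosis. In zebrafish embryos, activation of this pathway is a well-known side effect of some morpholinos, and it varies with the oligonucleotide and its dose.

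All 9 gene names were found in each set of values. In the triplicate experiment they lay on 8 chromosomes, and none of their loci overlapped another listed locus. The positions, counted from 1 as listed with the triplicate values, were chromosome 4 from 23404789 to 23414292 for *mdm2*, chromosome 22 from 564664 to 570094 for *cdkn1a*, and chromosome 14 from 21835143 to 21842966 for *ccng1*. The gene *gadd45aa* lay on chromosome 2 from 10497068 to 10500973, *bbc3* on chromosome 15 from 23809954 to 23826315, and *baxa* on chromosome 3 from 37634635 to 37643979. The gene *casp8* lay on chromosome 6 from 12811027 to 12821868, *phlda3* on chromosome 23 from 5822471 to 5825170, and *sesn3* on chromosome 15 from 35185040 to 35234766. These values do not name their genome build. All 9 names belong to protein-coding genes by RefSeq, in its annotation of GRCz12tu, from which no position was taken. The name *baxa* also belonged to a further row at 18 hpf of the preliminary experiment, with 0.160 to 0.419 FPKM, below the limit of 1 FPKM used here, so its values come from the other row.

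The labels of the preliminary libraries could not be checked by the targeted transcript. The gene *tbx5a* was high in the library labelled as Tbx5b-deficient at 18 hpf, with 5.30 FPKM against 1.11 and 1.01 in those labelled as wildtype and as Tbx5a-deficient. At 21 hpf it was high in the library labelled as Tbx5a-deficient, with 16.1 FPKM against 2.51 and 3.88 in those labelled as wildtype and as Tbx5b-deficient. In addition, the column used for the wildtype library at 18 hpf is headed only with the strain, which all 3 libraries share, and was assigned to wildtype because the other columns name a morpholino. Preliminary libraries are therefore called by their labels throughout. Whether labels or columns of these libraries were exchanged was not tested, and each preliminary rise or fall given here belongs to a condition only as far as the labels hold. Of 12 markers of embryonic tissues, 11 were among the listed genes, and 10 of these were above 0 in every group. The epidermal keratin *krt4* was listed at 0 in all 14 groups, but without usable status, so its level is unknown. Sums of FPKM over all genes were 751767 to 934323 in the preliminary libraries and 859057 to 1293230 in the triplicate groups, in which wildtype embryos at 21 hpf were highest.

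In the preliminary experiment at 18 hpf, all 9 p53 response genes were highest in the library labelled as wildtype and lower in both libraries labelled as deficient. The gene *mdm2* had 476 (276 to 677) FPKM in the library labelled as wildtype, 91.6 (49.5 to 134) in that labelled as Tbx5a-deficient and 64.0 (37.1 to 91.0) in that labelled as Tbx5b-deficient. The value of the library labelled as wildtype was thus 5.20-fold and 7.44-fold higher than those of the libraries labelled as deficient. The bounds of *mdm2* were apart from that library in both and overlapped between them.

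Of the genes that act on the cell cycle and DNA repair, *ccng1*, which encodes cyclin G, was the most abundant of the 9 in every group of both experiments. Its values at 18 hpf were 3692 (2214 to 5171) FPKM in the library labelled as wildtype, 542 (337 to 747) in that labelled as Tbx5a-deficient and 498 (308 to 689) in that labelled as Tbx5b-deficient. The cyclin-dependent kinase inhibitor p21, encoded by *cdkn1a*, arrests the cell cycle downstream of p53. The transcript *cdkn1a* had 51.7 (35.3 to 68.1), 9.09 (5.52 to 12.7) and 10.5 (6.52 to 14.5) FPKM in the same order of libraries. The growth arrest and DNA damage gene *gadd45aa* had 38.4 (27.1 to 49.8), 4.33 (2.69 to 5.97) and 4.31 (2.68 to 5.93). For these 3 genes the libraries labelled as deficient overlapped each other and lay below the lower bound of the library labelled as wildtype.

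The apoptosis genes showed the same order. The gene *bbc3* encodes Puma, a BH3-only protein that promotes apoptosis, and had 16.1 (9.53 to 22.7) FPKM in the library labelled as wildtype against 1.01 (0.445 to 1.57) and 1.56 (0.704 to 2.41) in those labelled as Tbx5a-deficient and as Tbx5b-deficient. The initiator caspase gene *casp8* had 48.0 (34.4 to 61.5) FPKM against 3.68 (2.36 to 4.99) and 2.52 (1.57 to 3.47). The smallest difference was that of *baxa*, which encodes the Bax protein of the mitochondrial route to apoptosis, with 77.2 (51.7 to 103) FPKM against 31.1 (20.9 to 41.3) and 33.1 (21.6 to 44.6). In the library labelled as wildtype, *bbc3* was 16.0-fold above its value in that labelled as Tbx5a-deficient, and *baxa* was 2.48-fold above its own.

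The remaining genes restrain growth signalling. The gene *phlda3* encodes a repressor of Akt signalling in mammals, and had 81.7 (58.8 to 105) FPKM in the library labelled as wildtype, 6.20 (4.02 to 8.38) in that labelled as Tbx5a-deficient and 6.81 (4.42 to 9.20) in that labelled as Tbx5b-deficient. The stress-induced sestrin gene *sesn3* had 123 (89.7 to 157), 36.7 (26.5 to 47.0) and 17.0 (12.1 to 21.9) FPKM. It was the only gene of the 9 whose bounds were apart between the libraries labelled as deficient.

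Differences were measured as the log2 ratio of FPKM with a pseudocount of 1, which understates those of low genes. Genes counted as changed were those whose FPKM was at least 1 in 1 group, whose ratio was at least 1 in absolute value and whose bounds did not overlap. By this rule 9 of the 9 genes fell in the library labelled as Tbx5a-deficient at 18 hpf, where 1.01% of all 15712 genes fell. In that labelled as Tbx5b-deficient 9 of 9 fell, against 0.972% of 15847 genes. The ratios ran from -3.52 (*phlda3*) to -1.28 (*baxa*) in the first and from -3.80 (*casp8*) to -1.20 (*baxa*) in the second. The median ratios of the 9 genes were -2.77 and -2.88, beside -0.03 and -0.02 over all genes kept. Both contrasts share the library labelled as wildtype and are not independent of each other. Each preliminary group is a single library, so these differences have no replicate check and no p-value. Since the 9 genes were chosen with earlier results of these data known, the shares of all genes are no test of the list. In RNA of whole embryos, fewer cells with an active pathway and less RNA per cell cannot be told apart.

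**Figure D1:**
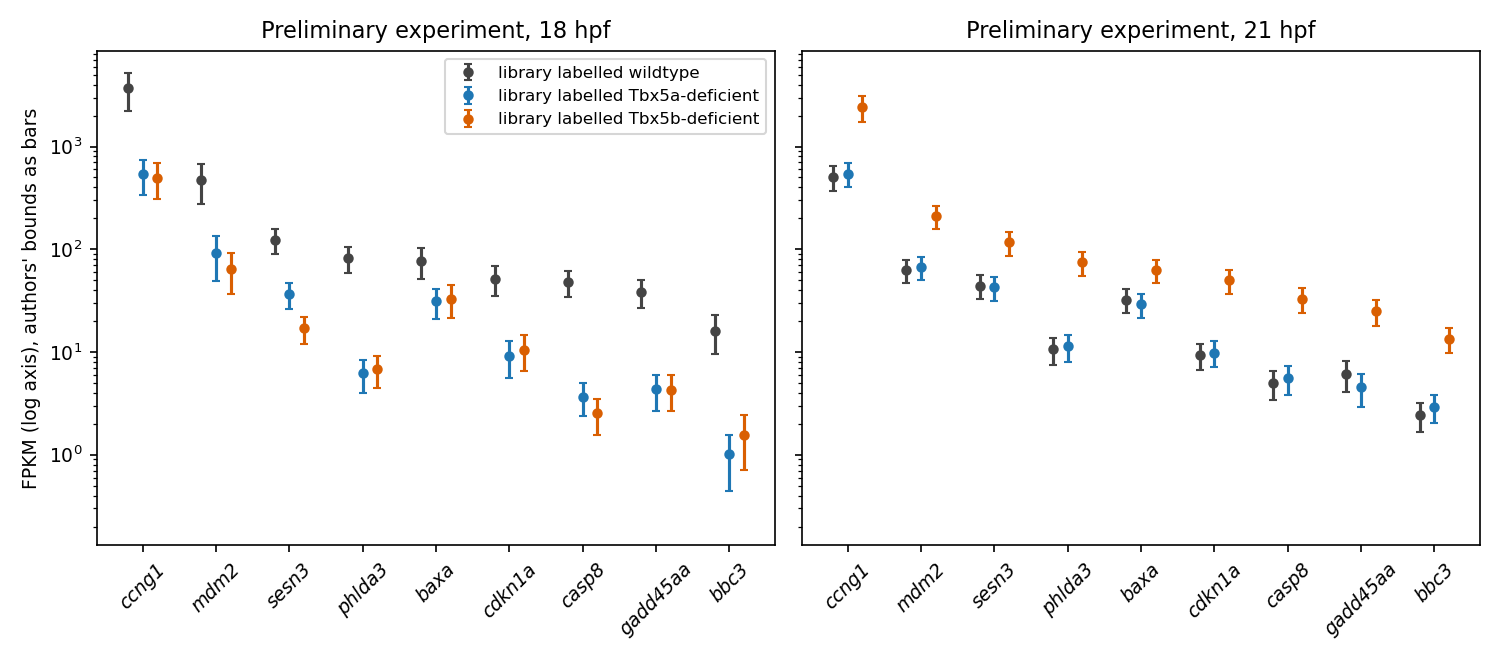
FPKM of the 9 p53 response genes, on a log axis, in the 6 preliminary libraries, with 18 hpf on the left and 21 hpf on the right; each point is 1 library and each bar runs between the authors' bounds. The library labelled as wildtype is highest for all 9 genes at 18 hpf, and that labelled as Tbx5b-deficient at 21 hpf.

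At 21 hpf of the preliminary experiment, the same genes were highest in the library labelled as Tbx5b-deficient, and those labelled as wildtype and as Tbx5a-deficient were close to each other. The gene *mdm2* had 62.9 (46.6 to 79.3) FPKM in the library labelled as wildtype, 67.2 (49.8 to 84.6) in that labelled as Tbx5a-deficient and 211 (156 to 266) in that labelled as Tbx5b-deficient. For *ccng1* these values were 507 (372 to 643), 546 (399.8 to 692) and 2409 (1718 to 3099.8), for *cdkn1a* 9.26 (6.62 to 11.9), 9.88 (7.08 to 12.7) and 49.8 (36.8 to 62.8), and for *gadd45aa* 6.09 (4.07 to 8.10), 4.52 (2.94 to 6.11) and 24.9 (18.0 to 31.7). The library labelled as Tbx5b-deficient was thus 3.35-fold above that labelled as wildtype for *mdm2*, 4.75-fold for *ccng1*, 5.38-fold for *cdkn1a* and 4.08-fold for *gadd45aa*.

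Among the apoptosis genes, *bbc3* had 2.41 (1.65 to 3.17) FPKM in the library labelled as wildtype, 2.91 (2.02 to 3.80) in that labelled as Tbx5a-deficient and 13.4 (9.87 to 17.0) in that labelled as Tbx5b-deficient. The values of *casp8* were 4.96 (3.42 to 6.51), 5.54 (3.85 to 7.23) and 32.9 (24.2 to 41.6), and those of *baxa* were 32.3 (23.7 to 40.9), 29.2 (21.5 to 37.0) and 62.8 (46.5 to 79.1). The growth regulator *phlda3* had 10.6 (7.47 to 13.8), 11.3 (8.01 to 14.7) and 74.8 (55.3 to 94.3) FPKM, a 7.03-fold difference between the libraries labelled as Tbx5b-deficient and as wildtype that was the largest of the 9. The values of *sesn3* were 44.1 (32.7 to 55.5), 42.5 (31.5 to 53.5) and 118 (86.7 to 148).

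Against the library labelled as wildtype, 8 of 9 genes rose in that labelled as Tbx5b-deficient at 21 hpf, where 0.716% of 11735 genes rose. The exception was *baxa*, with a ratio of 0.94 just under the limit and bounds that did not overlap. The median ratio of the 9 genes was 2.08, beside 0.00 over all genes. In the library labelled as Tbx5a-deficient 0 of 9 genes changed, where 0.0772% of 11651 genes changed in either direction. The ratios of the 9 genes ran from -0.36 (*gadd45aa*) to 0.20 (*bbc3*), and the bounds of all 9 overlapped those of the library labelled as wildtype. A fall of 1.70-fold (*sesn3*) to 2.02-fold (*gadd45aa*) in that library would have been needed for bounds of these relative widths to separate.

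The libraries labelled as deficient were also compared directly, a comparison added after the values were seen. At 21 hpf all 9 genes rose in the library labelled as Tbx5b-deficient against that labelled as Tbx5a-deficient, where 0.819% of all genes rose, with a median ratio of 2.14. At 18 hpf only *sesn3* fell, with a ratio of -1.07, where 0.127% of all genes fell, and the other 8 genes had overlapping bounds. The 9 genes were therefore high in 1 library of 3 at each stage, which was labelled as wildtype at 18 hpf and as Tbx5b-deficient at 21 hpf.

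**Figure D2:**
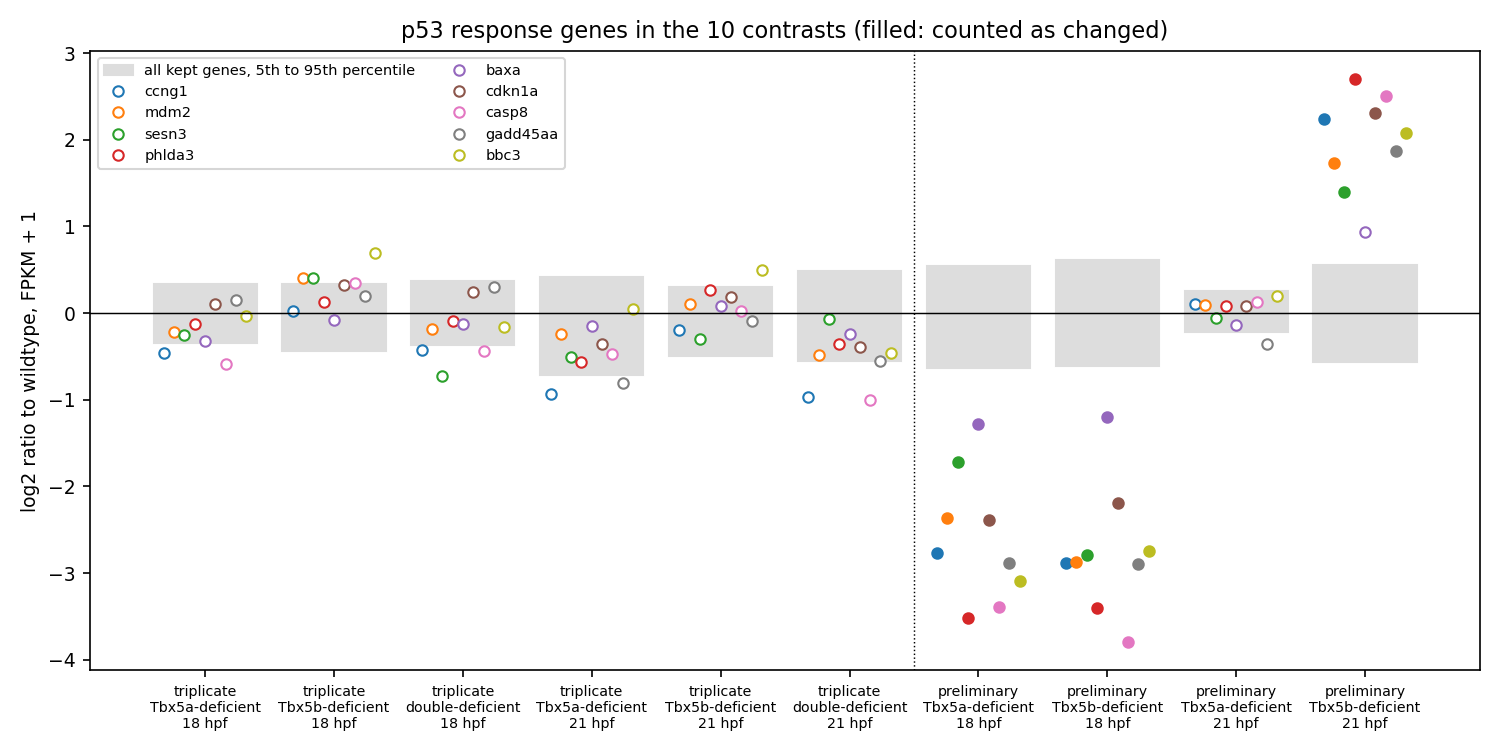
Log2 ratio of FPKM + 1 of each p53 response gene, deficient over wildtype, in the 6 triplicate and 4 preliminary contrasts; each circle is a gene, filled where it was counted as changed, and the grey box runs from percentile 5 to percentile 95 of all genes kept. The preliminary medians of -2.77 and -2.88 at 18 hpf and 2.08 in the library labelled as Tbx5b-deficient at 21 hpf stand apart from 0, whereas the triplicate medians lie between -0.48 and 0.33 and none of their circles is filled.

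Most other genes of the pathway did not pass the rule, nor did most of all genes. Of 34 further targets, partners and paralogues, 25 were kept at 18 hpf. In the library labelled as Tbx5a-deficient 2 of 25 fell, *sesn1* and *plk3*, where 1.01% of all genes fell. In that labelled as Tbx5b-deficient 1 of 25 fell, *sesn1*, where 0.972% of all genes fell, and none rose in either. Ratios were below 0 for 19 and 17 of the 25. At 21 hpf 27 were kept, and none changed against the library labelled as wildtype. Of all genes, 0.0772% changed in the library labelled as Tbx5a-deficient and 0.716% rose in that labelled as Tbx5b-deficient. Ratios were above 0 for 12 and 18 of the 27. The median ratios of the list were -0.12 and -0.15 at 18 hpf and 0.16 in the library labelled as Tbx5b-deficient at 21 hpf. The sestrin gene *sesn1* had 25.8 FPKM in the library labelled as wildtype at 18 hpf and fell to 10.1 and 7.61 in those labelled as Tbx5a-deficient and as Tbx5b-deficient. The polo-like kinase gene *plk3* fell from 59.3 to 24.1 FPKM in the library labelled as Tbx5a-deficient and had 48.4 in that labelled as Tbx5b-deficient. At 21 hpf, *sesn1* had 21.4, 21.9 and 35.9 FPKM in the libraries labelled as wildtype, as Tbx5a-deficient and as Tbx5b-deficient, and *plk3* had 33.3, 30.9 and 49.3, with ratios under the limit. The paralogue *gadd45bb* rose only between the libraries labelled as deficient at 21 hpf, from 7.77 to 19.5 FPKM.

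The genes of the preliminary experiment that moved with the p53 response genes were counted among 7987 names kept in 3 contrasts, both at 18 hpf and that of the library labelled as Tbx5b-deficient at 21 hpf. Of these names, 51 fell in both libraries labelled as deficient at 18 hpf, which is 0.639%, and 58 rose in the library labelled as Tbx5b-deficient at 21 hpf, which is 0.726%. The sets shared 33 genes, 64.7% of the first and 56.9% of the second, among them 8 of the 9 p53 response genes. The other 25 held *foxo3b*, which encodes a stress-responsive forkhead factor, *lnx1*, which encodes a ubiquitin ligase, and *parp3*, which encodes a poly(ADP-ribose) polymerase of DNA repair. These were named after their values were seen, by no set criterion, and their functions do not stand for those of the 25. The gene *foxo3b* had 56.3, 7.61 and 9.59 FPKM at 18 hpf and 13.0, 14.3 and 46.4 at 21 hpf, in the libraries labelled as wildtype, as Tbx5a-deficient and as Tbx5b-deficient. For *lnx1* these values were 32.9, 2.57 and 2.81 at 18 hpf and 5.92, 6.88 and 38.5 at 21 hpf, and for *parp3* 17.7, 4.44 and 3.99, then 5.97, 5.43 and 15.5.

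Across all genes, the ratios of the library labelled as Tbx5a-deficient at 18 hpf and of that labelled as Tbx5b-deficient at 21 hpf, which have no library in common, had a Pearson's r of -0.69 over 7987 genes, and of -0.67 over 7978 without the p53 response genes. Genes are not independent replicates, and the stages were processed separately, so this value is a description. The opposite order of the stages was thus not limited to the 9 genes.

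**Figure D3:**
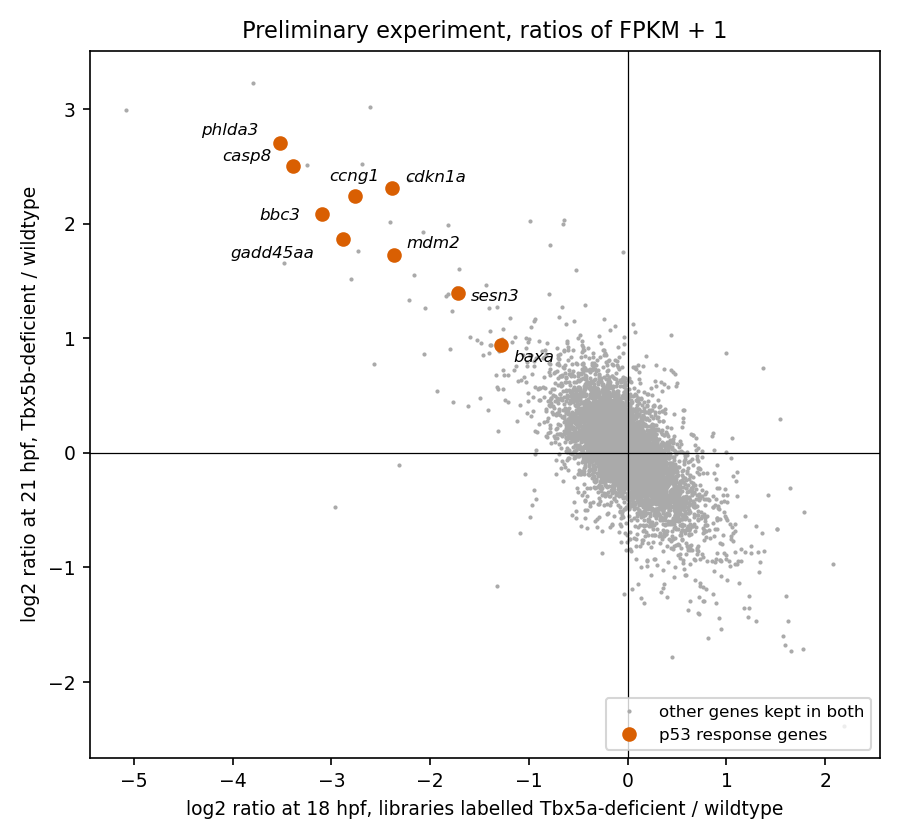
Log2 ratio of FPKM + 1 of each gene in the library labelled as Tbx5a-deficient over that labelled as wildtype at 18 hpf (horizontal axis) and in the library labelled as Tbx5b-deficient over that labelled as wildtype at 21 hpf (vertical axis), with the 9 p53 response genes named. All 9 lie in the upper left part, from -3.52 and 2.70 (*phlda3*) to -1.28 and 0.94 (*baxa*), at the end of a cloud with r = -0.69.

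Some eye transcripts also moved at 21 hpf. Of 13 eye markers with values, 11 had a ratio below 0 and 2 above 0 in the library labelled as Tbx5b-deficient against that labelled as wildtype. Only 2 of the 13, *cryba1l1* and *rx2*, fell by the rule. The others did not pass it, nor did most of all genes. The median of the 13 was -0.41, beside 0.00 over all genes. The crystallin gene *cryba1l1* had 62.5, 53.4 and 29.4 FPKM in the libraries labelled as wildtype, as Tbx5a-deficient and as Tbx5b-deficient. The retinal homeobox gene *rx2* had 7.86, 9.13 and 2.94 FPKM. The summed level of the markers was 290 FPKM in the library labelled as Tbx5b-deficient against 426 and 424 in those labelled as wildtype and as Tbx5a-deficient. At 18 hpf, where *cryba1l1* had no values, the sums were taken over 12 markers. They were 100.2, 106 and 135 FPKM in the libraries labelled as wildtype, as Tbx5a-deficient and as Tbx5b-deficient. There *rx2* had 2.12, 4.30 and 5.33 FPKM in the same order. It was the only eye marker to pass the rule at that stage, in the library labelled as Tbx5b-deficient. Of the 11 kept in that contrast, 9 had a ratio above 0 and 2 below. None of the markers with values was at 0 in any of these libraries. The ratios of the 10 tissue markers kept ran from -0.63 to 0.66 over the 4 preliminary contrasts. The sum of these markers without the globin gene *hbbe3* was 196 to 233 FPKM at 18 hpf and 335 to 369 at 21 hpf. The relative number of reads, estimated from the most frequent ratio of low values, was 0.944 to 1.22 of that of the library labelled as wildtype. The part of eye tissue or of depth in the differences of the p53 response genes was not tested.

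In the triplicate experiment no p53 response gene changed in any deficient group at either stage. At 18 hpf *mdm2* had 107 (54.8 to 160) FPKM in wildtype embryos, 92.4 (39.2 to 146) in those deficient in Tbx5a, 143 (69.0 to 216) in those deficient in Tbx5b and 94.5 (38.7 to 150) in those deficient in both. At 21 hpf it had 89.7 (47.9 to 131), 75.8 (35.8 to 116), 96.7 (51.8 to 142) and 63.8 (32.0 to 95.5) FPKM in the same order. The bounds of all deficient groups overlapped those of wildtype embryos of the same stage.

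The most abundant gene, *ccng1*, had 1597 (400.4 to 2793) FPKM at 18 hpf in wildtype, 1157 (72.0 to 2241) after knockdown of Tbx5a, 1626 (346 to 2905) after knockdown of Tbx5b and 1188 (35.5 to 2341) after knockdown of both. Its values at 21 hpf, in this order, were 2096 (446 to 3747), 1097 (54.5 to 2138.5), 1832 (361 to 3303) and 1073 (122 to 2023). The p21 gene *cdkn1a* had 12.8 (5.95 to 19.7), 13.9 (5.20 to 22.5), 16.4 (7.71 to 25.0) and 15.4 (5.79 to 24.9) FPKM at 18 hpf, and 15.9 (8.15 to 23.7), 12.2 (4.62 to 19.7), 18.3 (9.19 to 27.4) and 11.9 (4.42 to 19.5) at 21 hpf. The largest ratio of the 54 in this experiment was that of *casp8* in double-deficient embryos at 21 hpf, -1.004, where it had 6.78 (2.55 to 11.0) FPKM against 14.6 (6.76 to 22.5) in wildtype. It was the only ratio of at least 1 in absolute value, and its bounds overlapped.

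The other genes are given by group in the order of *mdm2* above, from wildtype to embryos deficient in both paralogues. The gene *baxa* was the steadiest, with 57.6, 46.0, 54.4 and 52.6 FPKM at 18 hpf and 50.7, 45.5, 53.7 and 42.7 at 21 hpf, a 1.35-fold range. The widest range, 3.46-fold, was that of *bbc3*, with 3.999, 3.90, 7.08 and 3.47 FPKM at 18 hpf and 3.21, 3.35, 4.95 and 2.05 at 21 hpf. Its highest values were those of Tbx5b-deficient embryos at both stages, as were those of *casp8*, with 16.1, 10.4, 20.8 and 11.6 FPKM at 18 hpf and 14.6, 10.2, 14.9 and 6.78 at 21 hpf.

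The growth regulator *phlda3* had 40.4, 37.0, 44.2 and 38.0 FPKM at 18 hpf and 32.5, 21.7, 39.3 and 25.1 at 21 hpf. The values of *gadd45aa* were 13.3, 14.9, 15.5 and 16.7 at 18 hpf, lowest in wildtype embryos, and 15.7, 8.61, 14.8 and 10.4 at 21 hpf, highest in wildtype embryos. Those of *sesn3* were 63.8, 53.4, 84.6 and 38.3 at 18 hpf and 44.8, 31.2, 36.3 and 42.8 at 21 hpf. For each of the 54 ratios of the 9 genes in 6 contrasts the bounds overlapped.

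By the rule above 0 of 9 genes changed at 18 hpf in embryos deficient in Tbx5a, in Tbx5b or in both, where 0.255%, 0.254% and 0.237% of all genes changed. At 21 hpf 0 of 9 changed in each, where 0.298%, 0.224% and 0.277% of all genes changed. The median ratios of the 9 genes at 18 hpf were -0.21, 0.33 and -0.16 in this order of groups, and at 21 hpf -0.48, 0.08 and -0.47. Over all genes these medians lay between -0.04 and -0.01. Rescaling all groups to an equal sum of FPKM moved the median of all genes at 21 hpf by 0.48, 0.36 and 0.38, and the median of the 9 genes in Tbx5a-deficient embryos then became 0.05. Relative to the median of all genes, the medians of the 9 genes at 21 hpf were -0.46, 0.12 and -0.43 as deposited and -0.42, 0.17 and -0.39 after rescaling.

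The bounds of the triplicate groups were wide for these genes, with upper bounds 42.3% to 97.0% above the values. Bounds of these relative widths would have separated at a fall in a deficient group of 2.47-fold (*baxa*) to 9.17-fold (*ccng1*). For *ccng1* a rise needed more, 9.08-fold against 8.48-fold for a fall in Tbx5b-deficient embryos at 21 hpf. In Tbx5a-deficient and double-deficient embryos its lower bounds lay nearer 0 relative to its values. A rise there needed a still larger difference, which was not computed. Smaller differences were not detectable by the rule, and the counts of 0 do not show that they were absent. The values combine 3 libraries, so no spread between libraries and no p-value could be given, and the tool's own test of single genes was not used. Each preliminary group had a single library, so its bounds hold no variation between replicates of a condition. How these bounds were modelled is not given in the sources used here. At the median gene their upper bounds were 26.6% to 31.1% above the values, against 44.0% to 45.7% in the triplicate groups. The rule was therefore not equally strict in both experiments.

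**Figure D4:**
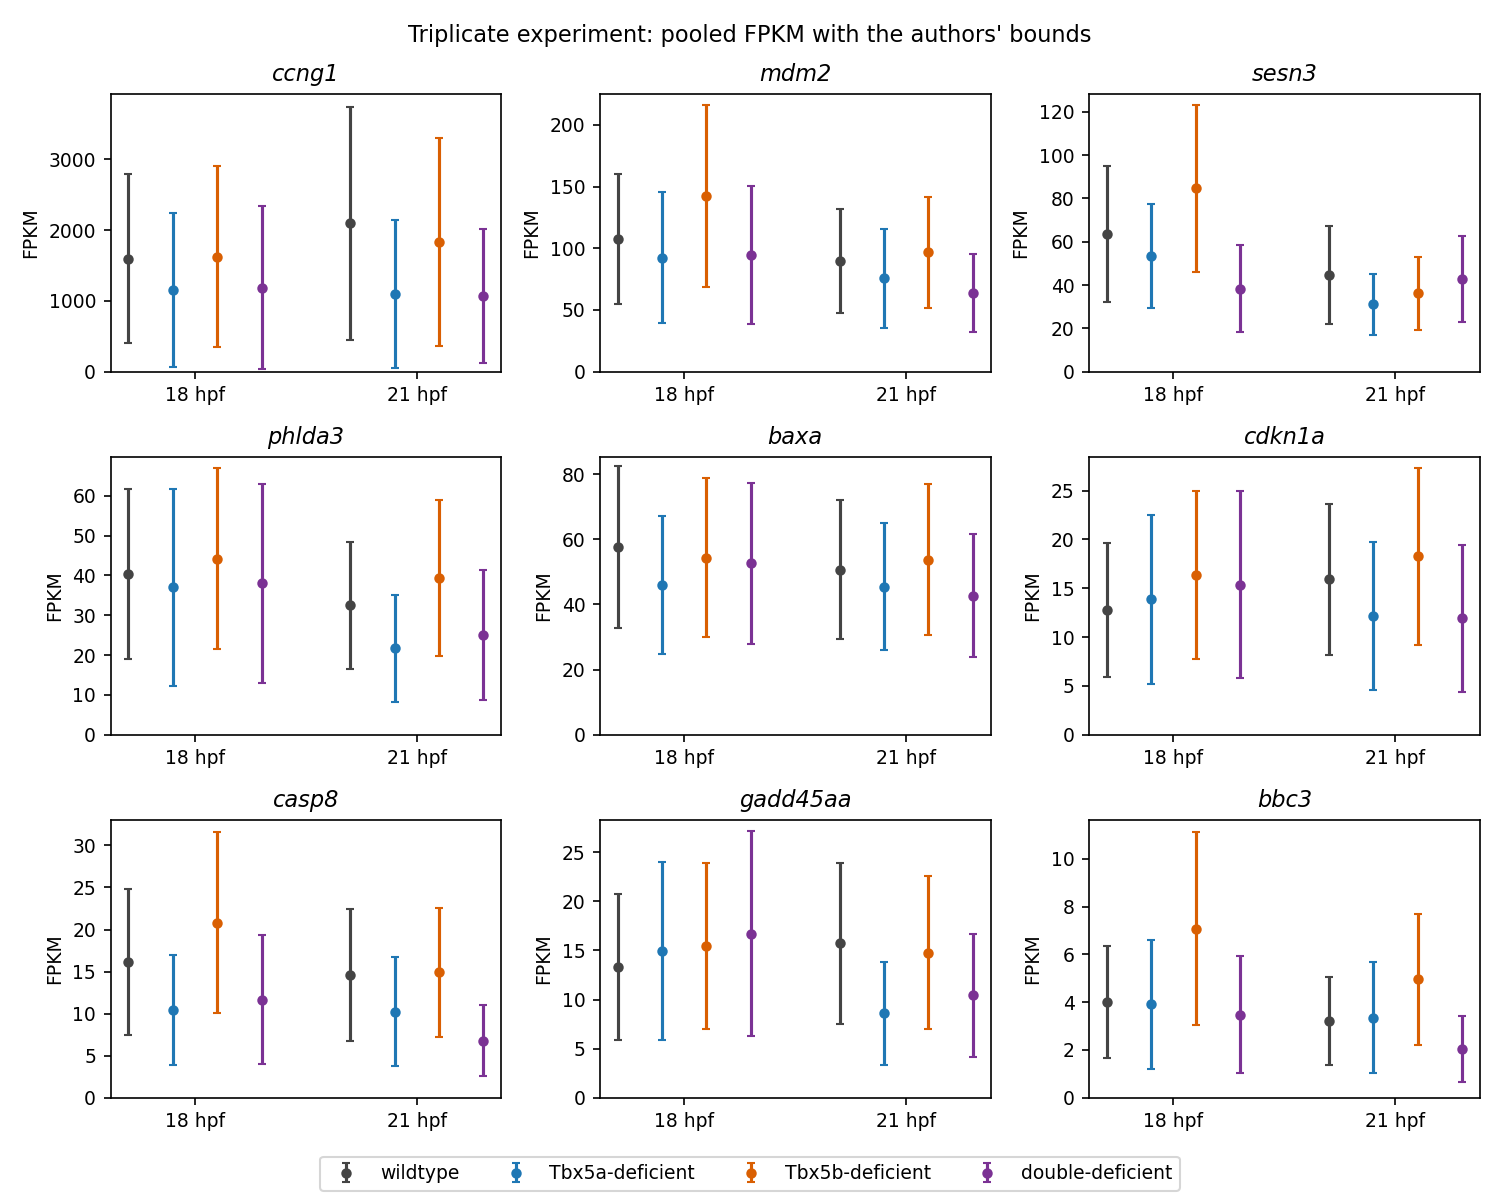
FPKM of the 9 p53 response genes, on a linear axis from 0 for each gene, in the 8 triplicate groups; points are values pooled over 3 libraries and bars run between the authors' bounds. Each gene stays within a 1.35-fold (*baxa*) to 3.46-fold (*bbc3*) range, and the bounds of all deficient groups overlap those of wildtype embryos of their stage.

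The order of the triplicate groups was described after the values were seen. Wildtype and Tbx5b-deficient embryos both lay above Tbx5a-deficient and double-deficient embryos for 7 of 9 genes at 18 hpf, all but *cdkn1a* and *gadd45aa*, an order held by 34.1% of all genes. At 21 hpf it held for 7 of 9 genes, all but *bbc3* and *sesn3*, and for 25% of all genes. After rescaling to equal sums it held for 7 of 9 genes and 47.2% of all genes at 18 hpf, and for 2 of 9 genes and 4.41% of all genes at 21 hpf. The values of Tbx5b-deficient embryos were above those of Tbx5a-deficient embryos for 9 of 9 genes at both stages. The median ratios were 0.49 at 18 hpf and 0.50 at 21 hpf, beside 0.02 and 0.00 over all genes. The share of all genes with this direction was not counted, and genes that vary together are not 9 separate observations. By the rule 0 of 9 changed at either stage, against 0.217% and 0.215% of all genes. None of 27 other pathway genes kept changed in any of the 6 contrasts with wildtype, where 0.224% to 0.298% of all genes changed.

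Between 18 and 21 hpf, 0 of 9 genes changed in wildtype embryos, where 0.578% of all genes changed. In embryos deficient in Tbx5a, in Tbx5b or in both, 0 of 9 changed as well, where 1.06%, 0.773% and 1.37% of all genes changed. The largest ratio between stages was that of *sesn3* in Tbx5b-deficient embryos, -1.20, from 84.6 (46.1 to 123) FPKM at 18 hpf to 36.3 (19.5 to 53.1) at 21 hpf, with overlapping bounds. Summed eye markers had 36.6 to 42.9 FPKM in the triplicate groups at 18 hpf, and at 21 hpf 43.9 in wildtype embryos, 54.5 after knockdown of Tbx5a, 73.6 after knockdown of Tbx5b and 51.3 after knockdown of both.

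Since FPKM is scaled to length, the genes can be ordered within a group. In all 14 groups of both experiments *ccng1* was highest, *mdm2* followed and *bbc3* was lowest. Between them *sesn3*, *baxa* and *phlda3* mostly ranked above *casp8*, *gadd45aa* and *cdkn1a*, but 4 to 8 of the 8 pairs of neighbours in this order had overlapping bounds, depending on the group. In the preliminary libraries labelled as deficient, *cdkn1a* and *gadd45aa* ranked above *casp8* at 18 hpf, whereas in the preliminary one labelled as wildtype *casp8* ranked above *gadd45aa*.

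Over the 8 triplicate groups the 9 genes varied together. Pearson's r of log2 FPKM + 1 was positive for 36 of 36 pairs, from 0.11 to 0.93 with a median of 0.65. Its mean was 0.65, against 0.05 over all pairs of genes of at least 10 FPKM in 1 group. That limit was not applied to the 9 genes, of which *bbc3* stayed below it, with at most 7.08 FPKM. The groups share the normalisation of 1 run, and a difference in scaling between groups also raises such values, so they carry no p-value. The genes most like *mdm2* of 6398 compared were *exo5* (r = 0.99), *ncapd3* (0.95), *tyw1* (0.95), *haus5* (0.94) and *rbms2b* (0.94). Those most like *cdkn1a* were *mirlet7f* (0.88), *strumpellin* (0.87), *exoc2* (0.87), *mre11a* (0.86) and *mrrf* (0.86). Both rankings are the highest of 6398 values over only 8 groups, and no limit on locus length was set. The gene *cdkn1a* itself varied only 1.53-fold between these groups.

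The experiments were normalised separately and differ in eye removal, so their levels are only set side by side. For 6 of 9 genes at 21 hpf, all 4 triplicate groups lay between the preliminary library labelled as Tbx5b-deficient and the higher of the other preliminary libraries. This was counted only for the 9 genes, so it does not set them apart from genes at large. The gene *phlda3* had 21.7 to 39.3 FPKM in the triplicate groups, between 11.3 and 74.8 in the preliminary libraries, and *ccng1* had 1073 to 2096, between 546 and 2409. The exceptions were *mdm2*, *bbc3* and *sesn3*, whose lowest triplicate group lay below the higher of those libraries. At 18 hpf the triplicate groups of every gene lay between the library labelled as wildtype and the higher of the others. The closest was *mdm2*, with 92.4 to 143 FPKM, between 91.6 and 476. For the label Tbx5a-deficient, the median ratio of the 9 genes at 18 hpf was -2.77 in the preliminary and -0.21 in the triplicate experiment, and at 21 hpf it was 0.09 and -0.48. For the label Tbx5b-deficient these medians were -2.88 and 0.33 at 18 hpf, and 2.08 and 0.08 at 21 hpf. Whether the triplicate bounds could have shown differences as large as the preliminary ones was computed for each gene from the relative width of its bounds. Such differences would have separated the bounds of 7 of 9 genes for the label Tbx5a-deficient at 18 hpf, and of 8 and 6 for the label Tbx5b-deficient at 18 and 21 hpf. The exceptions were *baxa* in all 3 contrasts, *ccng1* for the first and the last and *sesn3* for the last. For *ccng1* the bounds needed 7.73-fold at 18 hpf and 9.08-fold at 21 hpf, against preliminary differences of 6.81- and 4.75-fold, so differences of these sizes would not have been detectable.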

How the data were processed

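RNA of zebrafish embryos was sequenced as single-end reads of oligo dT cDNA. Per the submitters' processing notes, the authors aligned reads with TopHat2 2.1.0 and Bowtie2 2.2.5.0. Cufflinks and Cuffdiff then gave gene values. The deposited values are FPKM with lower and upper bounds, whose level is not given in the sources used here. Values of the triplicate experiment pool 3 libraries per group, and preliminary values at 18 and 21 hpf were made separately. The methods name the build Zv9 and the notes GRCz10 and danRer10. Zv9 scaffold names occur in the preliminary values at 18 hpf. Read numbers per library are unknown from these values, and precision was read from the bounds.

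The members and gene lists were chosen with earlier results of these data known. Each deficient group was compared with wildtype of its stage and experiment, in 10 contrasts. A gene was kept where both values had usable status and FPKM was at least 1 in 1 group. It was counted as changed where the log2 ratio (pseudocount 1) reached 1 in absolute value and the bounds were apart. The share of all genes so counted is given beside the counts of the 9 members. Named genes were the 9 members, genes of the other lists counted as changed at loci of at least 300 bp, and for *mdm2* and *cdkn1a* the 5 genes with the highest Pearson's r over the triplicate groups. Outside this rule, *foxo3b*, *lnx1*, *parp3*, *igf2a*, *rspo1* and *mmp2* were named after their values were seen. Lists of 34 other p53 pathway genes, 21 interferon response genes, 14 eye markers and 12 tissue markers were used, and some other genes of the pathway are not reported here. The rule was tested on simulated data. A limma model planned for values of single libraries could not be used on pooled values. Alternatives were other pseudocounts, FPKM limits, ratio limits, scalings and lists, bounds not used, and the preliminary contrasts between libraries labelled as deficient. Python 3.11.15, numpy 2.4.6, pandas 2.3.3 and matplotlib 3.10.9 were used.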

Additional observations from a re-analysis of the deposited data

Results flagged for a closer look

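Only the 9 p53 response genes and *isg15* were screened here. In the preliminary experiment 9 of these, 8 of them p53 response genes, were counted as changed in opposite directions at the stages. In the library labelled as Tbx5b-deficient, against that labelled as wildtype, they fell at 18 hpf and rose at 21 hpf. Other genes did so too. Of 7987 names, 33 did so and also fell in the library labelled as Tbx5a-deficient at 18 hpf, and 25 of these were not p53 response genes. The share of all genes without that further condition was not counted. The ratio at 21 hpf minus that at 18 hpf was 4.61 for *mdm2*, 4.50 for *cdkn1a*, 5.13 for *ccng1* and 4.76 for *gadd45aa* on the log2 scale. It was 4.82 for *bbc3*, 6.30 for *casp8*, 6.11 for *phlda3* and 4.18 for *sesn3*. Outside the p53 response genes it was 7.50 for *isg15*, which encodes a ubiquitin-like protein induced by interferon. Each value rests on 4 single libraries, and the difference between the stages was not tested.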

How the results depend on the processing

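The counts and medians of the p53 response genes were recomputed under alternative settings, which gave 180 values over all contrasts. Of these, 173 stayed within 1.5 times the count or, for medians, within the typical relative width of the authors' upper bounds. None reversed a direction that had been counted. That width is large in the triplicate groups. The median in Tbx5a-deficient embryos at 21 hpf counted as unchanged although rescaling moved it from -0.48 to 0.05. With bounds not used, 1 gene passed at 21 hpf in the triplicate double-deficient group (*casp8*), and 1 between the stages in Tbx5b-deficient embryos (*sesn3*). With the list reduced to *mdm2*, *cdkn1a*, *ccng1* and *phlda3*, 4 of 4 genes passed in both preliminary contrasts at 18 hpf and in that of the library labelled as Tbx5b-deficient at 21 hpf. With the library labelled as Tbx5a-deficient in place of that labelled as wildtype at 18 hpf, an alternative added after the values were seen, 1 gene passed in that labelled as Tbx5b-deficient instead of 9. The order of the triplicate groups at 21 hpf held for 2 genes after rescaling, also added later. Of 534 alternative ratios of single genes, 14 changed sign, none of them counted as changed. These were not spread evenly over the settings. At 21 hpf of the triplicate experiment, rescaling to equal sums moved the number of genes below 0 from 8 to 3 in Tbx5a-deficient embryos. That number moved from 3 to 0 in Tbx5b-deficient and from 9 to 5 in double-deficient embryos. No paired analysis was possible because the triplicate values are pooled over replicates and the preliminary groups have 1 library each, and for the same reasons no replicate could be left out.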

Other observations

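Interferon response genes are the other common reaction of embryos to injected oligonucleotides. Of the 21 listed, 11 had values at 18 hpf of the preliminary experiment, and 15 at its 21 hpf and in the triplicate experiment. Most of those with values were below 1 FPKM, and 4 or 5 were kept in each contrast with wildtype. The gene *isg15* had 45.1 (30.0 to 60.2) FPKM in the preliminary library labelled as wildtype at 18 hpf and fell in both libraries labelled as deficient at that stage. At 21 hpf it rose from 0.424 (0.166 to 0.682) FPKM in the library labelled as wildtype to 10.3 (7.16 to 13.5) in that labelled as Tbx5b-deficient, with 0.731 (0.341 to 1.12) in that labelled as Tbx5a-deficient. It was therefore highest in the same library as the p53 response genes at each stage. The interferon regulatory factor gene *irf1b* did not follow this order. It rose in the library labelled as Tbx5b-deficient at both stages, from 0.266 (0.117 to 0.415) to 1.75 (1.04 to 2.45) FPKM at 18 hpf and from 1.12 (0.643 to 1.60) to 4.02 (2.70 to 5.33) at 21 hpf. The other genes of the list that were kept did not pass the rule in the preliminary contrasts, nor did most of all genes. In the triplicate experiment 0 of 4 genes of the list changed in any contrast with wildtype, where 0.224% to 0.298% of all genes changed. There *isg15* had 1.05 to 6.34 FPKM over the 8 groups.

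Further genes that moved with the p53 response genes in the preliminary experiment, chosen after their values were seen, were *igf2a*, *rspo1* and *mmp2*. The insulin-like growth factor gene *igf2a* had 45.8, 17.7 and 10.2 FPKM at 18 hpf in the libraries labelled as wildtype, as Tbx5a-deficient and as Tbx5b-deficient, then 9.79, 9.77 and 25.1 at 21 hpf. The R-spondin gene *rspo1*, whose product enhances Wnt signalling, had 6.82, 0.209 and 0.190 FPKM at 18 hpf, and 0.918, 0.979 and 10.0 at 21 hpf. The matrix metalloproteinase gene *mmp2* had 79.4, 29.7 and 28.0 FPKM at 18 hpf, and 40.8, 41.3 and 86.5 at 21 hpf.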
